A study of Mus musculus with 4 samples.

Results

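The genes of the major histocompatibility complex (MHC) and of antigen presentation were followed in Treg cells of the mouse large intestine (LI) that lack the histone H3K36 methyltransferase Setd2. Every gene whose symbol begins with H2-, the mouse name of the MHC, was taken, together with *B2m*, *Tap1*, *Tap2*, *Tapbp*, *Tapbpl*, *Erap1*, *Psmb8*, *Psmb9*, *Psmb10*, *Nlrc5*, *Ciita*, *Cd74*, *Rfx5*, *Rfxap*, *Rfxank*, *Cd1d1*, *Mr1* and *Ctss*. This gave 63 of the 53379 genes listed, and 50 of the 63 lie on chromosome 17. The genes were taken by name, and no threshold on a measured value was applied. The cells were CD3+CD4+YFP+ cells of C57BL/6 littermates aged 6 to 12 weeks, at steady state and without treatment, and their RNA was read as 150 bp pairs. Control mice were Foxp3Cre-YFP Setd2 f/+ and KO mice were Foxp3Cre-YFP Setd2 f/f, so both groups carried Cre and YFP from the *Foxp3* locus and the control mice had 1 intact and 1 floxed copy of *Setd2*. The paper describes 1 *Setd2* allele as deficient in the Treg cells of such control mice, so the control cells are not wild type. There were 2 libraries per group, each from a pool of 2 to 3 mice, and the spread within a group is that between pools.

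MHC class I molecules are made by nearly all cells. The proteasome cuts cytosolic proteins, the TAP transporter carries the peptides into the endoplasmic reticulum, and tapasin and Erap1 help to fit and trim them before the heavy chain and beta-2 microglobulin take them to the surface for CD8+ T cells. MHC class II molecules belong mainly to dendritic cells, macrophages and B cells, where the invariant chain CD74 fills the groove, cathepsin S cuts it away, H2-DM exchanges the remaining fragment for peptide, and H2-O restrains H2-DM. Nlrc5 switches on class I genes and Ciita class II genes, through factors that sit on the X and Y boxes of their promoters. In mice, resting T cells are known for class I and not for class II.

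The starts of several genes that changed are given first, because class I and class II genes are known for shared promoter boxes and because *Psmb9*, which was called, and *Tap1*, which was not, start on either side of a single short stretch. The 250 bases before the RefSeq start are shown 5′ to 3′ in the direction of the gene for *H2-Ob* (chr17:34238655-34238904, plus strand), *H2-Oa* (chr17:34092129-34092378, plus strand) and *H2-T22* (chr17:36042743-36042992, minus strand), with coordinates of GRCm38.p6. The last line is the plus strand of the 225 bases between the starts of *Psmb9* and *Tap1* (chr17:34187331-34187555). Capitals mark matches on either strand to an X box core (AGCAACA), a Y box core (GATTGG), the interferon-stimulated response element core (GAAANNGAA) or the NF-kB core (GGGGANTCC).
H2-Ob: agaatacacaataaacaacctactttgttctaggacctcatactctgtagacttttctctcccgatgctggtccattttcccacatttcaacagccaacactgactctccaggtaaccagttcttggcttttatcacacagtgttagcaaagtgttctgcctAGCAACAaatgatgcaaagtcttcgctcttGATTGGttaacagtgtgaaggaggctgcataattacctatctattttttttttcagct
H2-Oa: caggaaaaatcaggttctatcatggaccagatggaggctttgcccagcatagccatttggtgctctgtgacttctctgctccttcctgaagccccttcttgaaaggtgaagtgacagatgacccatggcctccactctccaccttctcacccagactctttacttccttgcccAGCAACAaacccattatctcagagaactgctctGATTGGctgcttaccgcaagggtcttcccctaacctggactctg
H2-T22: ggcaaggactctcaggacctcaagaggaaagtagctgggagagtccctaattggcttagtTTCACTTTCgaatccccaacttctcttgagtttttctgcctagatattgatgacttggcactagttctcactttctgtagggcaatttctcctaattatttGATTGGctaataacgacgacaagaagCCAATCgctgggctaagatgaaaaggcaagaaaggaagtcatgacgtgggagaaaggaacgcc
Psmb9 and Tap1: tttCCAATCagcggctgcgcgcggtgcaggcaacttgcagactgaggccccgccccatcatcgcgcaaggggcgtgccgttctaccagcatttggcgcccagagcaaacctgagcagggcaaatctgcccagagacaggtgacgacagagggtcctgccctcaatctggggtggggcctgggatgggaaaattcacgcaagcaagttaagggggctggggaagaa

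The genes lower in KO, *H2-Ob* and *H2-Oa*, each held an X box core followed by a Y box core. In *H2-Ob* the X box core ran from 88 to 82 and the Y box core from 58 to 53 bases before the start, and in *H2-Oa* they ran from 77 to 71 and from 44 to 39 bases. Both cores were present in 262 of the 32851 promoter windows of the RefSeq table (250 bases before and 50 after each start), or 0.798%, and *H2-T23*, which was not called, was the remaining tested gene of the set with both. The X and Y cores were chosen after these sequences had been seen, and the X box core is 1 exact string of 7 bases. Of the 9 tested class II genes with a window, *H2-Ob* and *H2-Oa* alone held that string. *H2-Aa*, *H2-Eb1*, *H2-DMa*, *H2-DMb1*, *H2-DMb2* and *Rfxank* held the Y box core without it. *H2-Ab1* and *Cd1d1* had no window. The matches therefore do not set the lower genes apart by X and Y boxes in general. Of the 25 tested genes of the set with a window, 18 held the Y box core (16.1% of all windows), 3 the X box core (5.35%), 5 the interferon element (8.56%) and 4 the NF-kB core (1.19%). The interferon element stood 190 to 182 bases before the start of *H2-T22*. In the shared *Psmb9* and *Tap1* stretch a Y box core was the one match to the 4 motifs, near the *Psmb9* start. No binding was measured in these libraries, so the matches describe letters.

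The values are listed as FPKM, by definition the number of sequenced fragments relative to transcript length and to the mapped total. It allows for length when genes of a library are compared. Values at the same rank were nearly the same in all 4 libraries, so a difference between libraries is one of place among the genes of a library. Of the 5000 highest ranks, 2172 held one common value, so a gene among the most abundant can move only in steps from rank to rank, and the depth of the libraries is unknown. Each log2 fold change compares KO with control after adding 1 to the FPKM, which understates the change of low genes, and stands with its standard error (SE) or 95% interval. The p comes from a two-sided limma fit over 7639 protein-coding genes whose mean FPKM exceeded 5 in at least 1 of the groups. A gene was called at an unadjusted p below 0.05, the threshold of the study, and the Benjamini-Hochberg adjusted p over all 7639 genes is given beside it. An exact permutation test of 1 gene with 2 libraries against 2 cannot give a p below 0.333.

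The targeted gene *Setd2* had 38.19 and 27.36 FPKM in control and 26.33 and 36.30 in KO. The groups overlapped and the whole-gene value does not cover single exons, so it did not check the genotype, and control and KO are the libraries as labelled. Of the 7 T and Treg cell markers 6 were above 5 FPKM in every library, among them *Cd3e* (149 to 187), *Il2ra* (152 to 184) and *Ctla4* (1593 to 2310), whereas *Foxp3* itself was at 2.62, 5.61, 4.66 and 3.05 FPKM. Of the CD8 T cell markers, *Cd8a* was at most 0.35 FPKM and *Cd8b1* at 2.08 to 2.96. In sorted bulk RNA, fewer cells of a type and less RNA per cell cannot be told apart.

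Of the 63 genes 31 could be tested. In KO LI Treg cells 6 of these were higher, namely *Cd1d1*, the immunoproteasome genes *Psmb8*, *Psmb9* and *Psmb10*, *H2-T22* and *H2-Ab1*, and 2 were lower, the H2-O genes *H2-Ob* and *H2-Oa*. The 6 higher genes are 19.4% of those tested, where 658 of all 7639 genes (8.61%) were higher, and the 2 lower genes are 6.45%, where 578 of all genes (7.57%) were lower. After adjustment 1 gene, *H2-Ob*, kept a p below 0.05, and 45 of all genes (0.589%) did. Both KO libraries lay above both control libraries for 13 of the 31 genes and below them for 3, against 24.2% and 22.9% of all genes. The median log2 fold change was 0.13, with a range from -1.01 to 0.69, and that of all genes was 0.00. On the class I side, with *Cd1d1*, *Mr1* and the transactivator *Nlrc5* counted in, 5 of 19 tested genes were higher and 0 lower. *Cd1d1*, which shows lipids and not peptides, is 1 of the 5. On the class II side 1 of 11 was higher and 2 were lower.

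**Figure D1:**
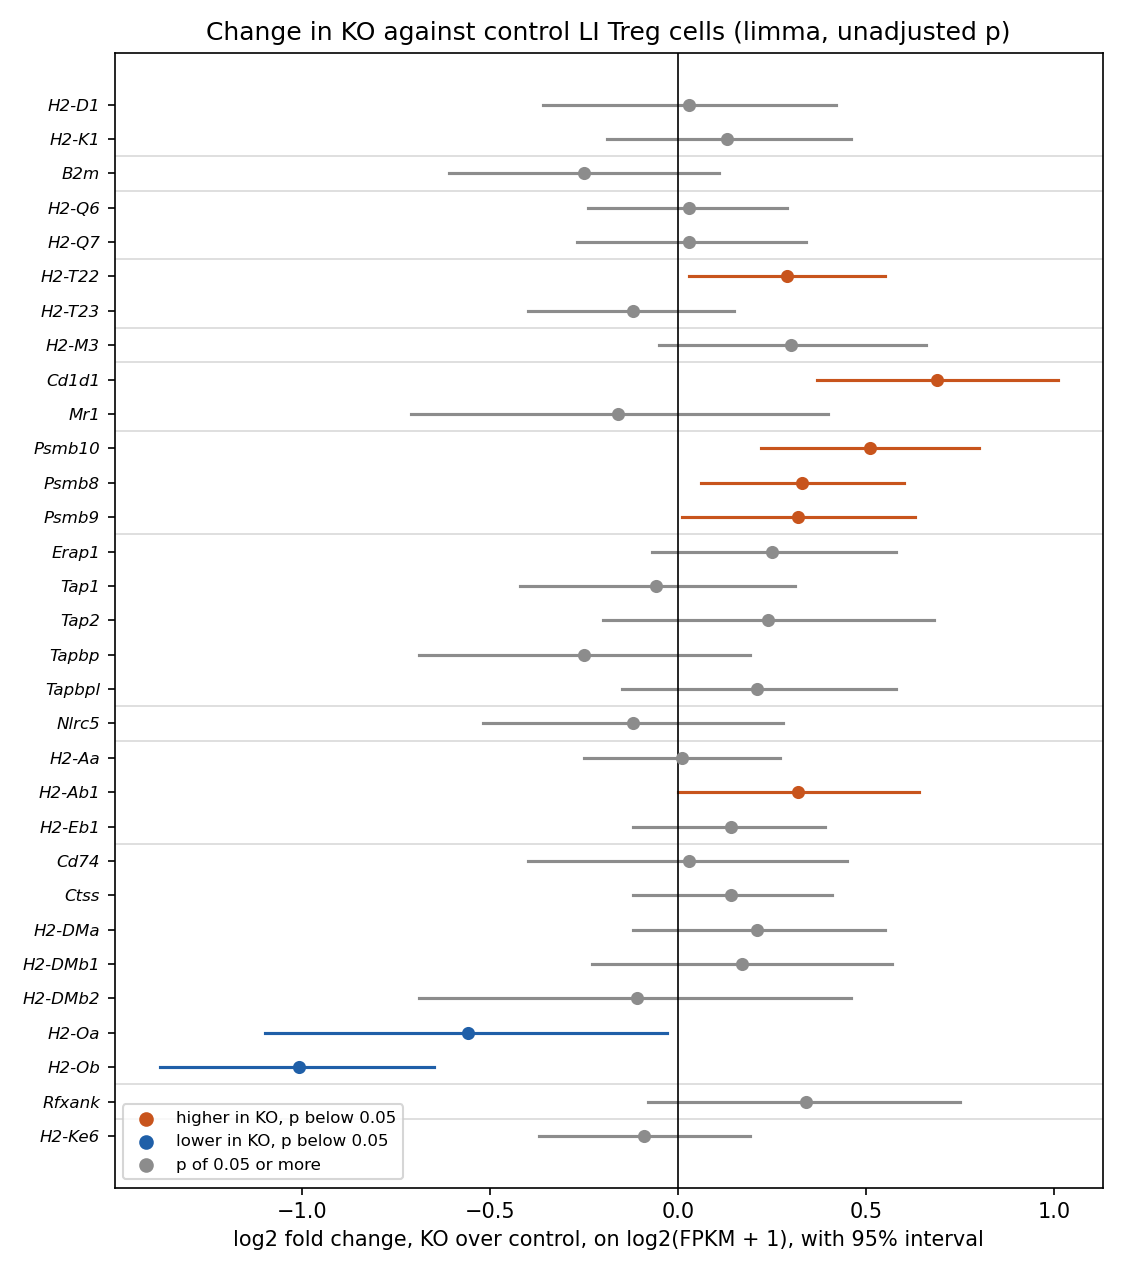
Log2 fold change (KO over control, on log2(FPKM + 1), horizontal axis) of the 31 tested genes with the 95% interval of limma (bars), grouped by role from class I heavy chains at the top to class II regulators near the bottom and the enzyme gene H2-Ke6 last. The 6 genes called higher reach 0.69 (Cd1d1), the 2 called lower reach -1.01 (H2-Ob), and the other 23 intervals cross 0.

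The classical class I molecule was abundant and its genes overlapped between the groups. *B2m*, the light chain of all class I molecules, had 10095.23 and 12537.39 FPKM in control and 10095.23 and 8866.51 in KO. It stood at rank 4, 2, 4 and 5 of all genes, and its value in KO 1 equals that in control 1 because both held the same rank. *H2-K1*, a classical heavy chain, had 5596.30 and 6607.39 FPKM in control and 7085.14 and 6253.72 in KO. *H2-D1*, the other one, had 4101.50 and 5282.45 in control and 5282.45 and 4284.10 in KO. For *B2m* the log2 fold change was -0.25 (95% interval -0.61 to 0.11), against 0.13 (-0.19 to 0.46) for *H2-K1* and 0.03 (-0.36 to 0.42) for *H2-D1*, and none was called. Without control 1 *B2m* was called lower at -0.41 (unadjusted p = 0.00694, adjusted p = 0.154), and *H2-D1* changed sign without control 1 or without KO 1. The 63 genes together held 3.27% and 3.82% of all FPKM in control and 3.65% and 3.22% in KO.

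**Figure D2:**
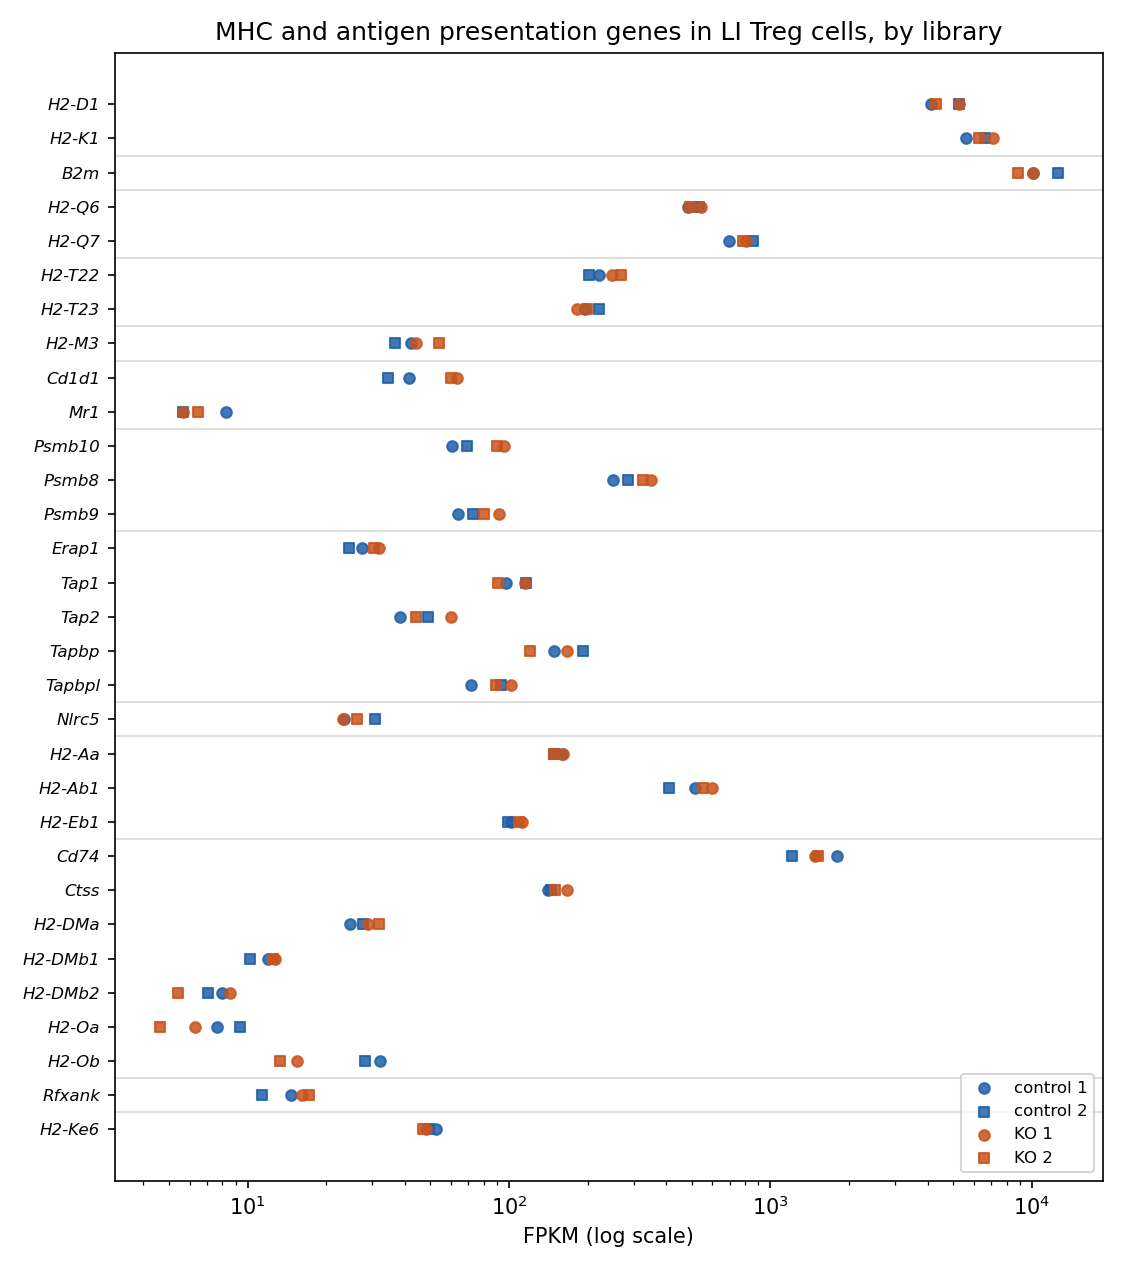
FPKM (log axis) of the 31 tested genes in each library, with control in blue, KO in orange, library 1 as circles and library 2 as squares, and lines between roles. Levels run from Mr1, at 5.64 to 8.27, and H2-Oa, at 4.61 to 9.38, up to B2m, at 8866.51 to 12537.39, and the groups stand apart most clearly for Cd1d1, Psmb10 and H2-Ob.

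Among the nonclassical class I genes, *Cd1d1* had the largest change. It encodes CD1d, which shows lipids to NKT cells, and lies on chromosome 3 (86995834 to 86999441 in GRCm38). It had 41.48 and 34.60 FPKM in control libraries 1 and 2, and 63.40 and 59.94 in KO libraries 1 and 2. Both KO libraries lay well above both controls. The mean was 1.62 times that of control and the log2 fold change 0.69 (SE 0.14, unadjusted p = 0.00136, adjusted p = 0.0821). It was called in each fit that left out 1 library, with a log2 fold change of 0.56 to 0.82. Its near copy *Cd1d2*, whose transcript matches *Cd1d1* at 96.3% of bases over 63.6% of the length, was at most 1.39 FPKM. *Mr1*, which shows microbial vitamin metabolites to MAIT cells, had 8.27 and 5.65 FPKM in control and 5.64 and 6.48 in KO, giving a log2 fold change of -0.16 (95% interval -0.71 to 0.40).

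Of the 2 tested H2-T genes 1 was called. *H2-T22*, whose product is a ligand of some gamma delta T cell receptors, had 220.07 and 201.86 FPKM in control and 248.27 and 269.25 in KO, and the groups did not overlap. This is a log2 fold change of 0.29 (SE 0.11, unadjusted p = 0.0323, adjusted p = 0.263). The call was lost without control 2 (0.23), without KO 1 (0.35) and without KO 2 (0.24). *H2-T10*, a relative at 96.9% identity annotated as another gene type and so not tested, had 51.05 and 56.44 FPKM in control and 62.29 and 62.96 in KO. *H2-T23*, which encodes Qa-1, the ligand of the inhibitory NKG2A receptor, had 195.61 and 221.06 in control and 182.68 and 198.91 in KO. These groups overlapped, and the log2 fold change was -0.12 (95% interval -0.40 to 0.15). Since reads of such relatives can be divided between them in more than one way, the FPKM of all 6 genes whose symbol begins with H2-T was also summed. The sum was 487.14 and 509.35 in control and 517.39 and 556.65 in KO, with a log2 fold change of 0.11 (95% interval -0.14 to 0.35, unadjusted p = 0.342).

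The H2-Q genes, which include those of the Qa-2 molecule, were high in all libraries. *H2-Q7* had 697.03 and 860.68 FPKM in control and 804.95 and 781.91 in KO, *H2-Q6* lay between 483.12 and 543.41, and the log2 fold change of each was 0.03. *H2-Q5*, not tested for its gene type, lay between 78.68 and 100.56, and its transcript matches *H2-Q7* at 92.9% of bases over its whole length. Summed over the 8 H2-Q genes, the FPKM was 1270.11 and 1490.38 in control and 1461.9 and 1371.67 in KO, with a log2 fold change of 0.04 (95% interval -0.24 to 0.33). The KO libraries lay within the range of the control libraries. *H2-M3*, which shows formylated bacterial peptides, had 42.29 and 36.57 FPKM in control and 43.91 and 54.05 in KO. Its groups did not overlap, but its log2 fold change of 0.30 missed the threshold (SE 0.15, unadjusted p = 0.086, adjusted p = 0.386).

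The 3 catalytic subunits that turn the standard proteasome into the immunoproteasome were higher in KO, each with both KO libraries above both controls. *Psmb10*, encoding MECL-1, had 60.50 and 69.04 FPKM in control and 95.56 and 89.63 in KO, 1.43 times the control mean. The change was 0.51 on the log2 scale (SE 0.12, unadjusted p = 0.00398, adjusted p = 0.120), and it was called in each fit that left out 1 library. *Psmb8*, encoding LMP7, had 249.86 and 286.21 in control and 349.08 and 324.62 in KO. This is a log2 fold change of 0.33 (SE 0.12, unadjusted p = 0.0239, adjusted p = 0.236). *Psmb9*, encoding LMP2, had 63.64 and 72.97 in control and 91.23 and 79.99 in KO. For it the log2 fold change was 0.32 (SE 0.13, unadjusted p = 0.0432, adjusted p = 0.292). The calls of *Psmb8* and *Psmb9* were lost without control 1 (0.23 and 0.22), without KO 1 (0.28 and 0.23) and without KO 2 (0.38 and 0.42).

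Each of these subunits takes the place of a standard one, *Psmb5* for *Psmb8*, *Psmb6* for *Psmb9* and *Psmb7* for *Psmb10*. The standard genes were not called, with log2 fold changes of 0.04 (95% interval -0.28 to 0.36), 0.07 (-0.21 to 0.35) and -0.01 (-0.34 to 0.32). *Psmb8* stood at 3.14 and 2.88 times the FPKM of *Psmb5* in control and at 3.86 and 3.51 times in KO. *Psmb10* stood at 0.383 and 0.473 times that of *Psmb7* in control and at 0.713 and 0.527 times in KO. For both, the KO ratios lay above the control ratios. The ratio of *Psmb9* to *Psmb6*, 0.088 and 0.119 in control and 0.131 and 0.113 in KO, overlapped. Of the 14 standard subunits of the 20S core, 3 were called higher and 0 lower, with a median log2 fold change of 0.04. The share called higher was 21.4%, against 8.61% of all genes tested. These were *Psma1* at 0.29, *Psma4* at 0.28 and *Psmb3* at 0.25 (unadjusted p of 0.0256, 0.0411 and 0.0402). *Psme2*, a subunit of the PA28 activator that interferon induces, had 428.08 and 467.50 FPKM in control and 544.72 and 570.46 in KO. Its log2 fold change was 0.32 (unadjusted p = 0.0204, adjusted p = 0.222), and its partner *Psme1* was at 0.21 (unadjusted p = 0.0882).

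**Figure D3:**
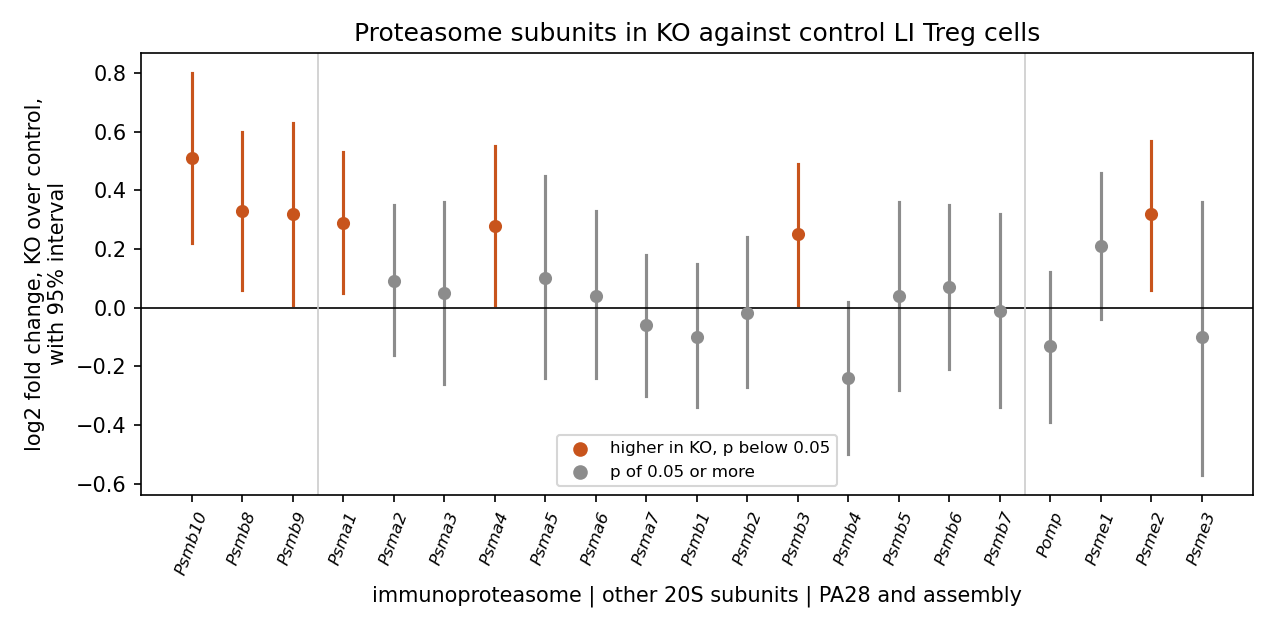
Log2 fold change (KO over control) with 95% interval of the 3 immunoproteasome genes (left), the 14 standard 20S subunits (middle) and the PA28 and assembly genes (right), with genes called higher in orange. All 3 immunoproteasome genes are called, at 0.32 to 0.51, and 3 of the 14 standard subunits (21.4%), where 8.61% of all genes tested were higher.

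None of the 5 peptide loading genes was called. *Tap1*, a chain of the peptide transporter, had 97.41 and 115.82 FPKM in control and 115.23 and 90.60 in KO. The groups overlapped, with a log2 fold change of -0.06 (95% interval -0.42 to 0.31), and it shares its promoter stretch with *Psmb9*. The ratio of *Psmb9* to *Tap1* was 0.653 and 0.630 in control and 0.792 and 0.883 in KO, so the KO ratios were above those of control. The annotated genes overlap by 212 bases on opposite strands. RSEM ran at its default, which does not use strand, so reads where genes overlap cannot be assigned by strand. The opposite-strand gene was higher than the gene it crosses for *Tap1* at *Psmb9* (212 bases, at most 116 FPKM) and *Cast* at *Erap1* (834 bases, at most 182 FPKM). The same held for *Brd2* at *H2-DMa* (3094 bases, at most 122 FPKM) and *Nr2c2ap* at *Rfxank* (2417 bases, at most 26.4 FPKM). The values of *Psmb9*, *Erap1*, *H2-DMa* and *Rfxank* are uncertain for it. The opposite-strand genes across *Psmb8* (*Gm20496*, at most 6.25 FPKM) and *H2-T22* (*A930015D03Rik*, at most 13.2 FPKM) were lower than the gene they cross. *Tap2*, the other chain, was at 0.24, *Erap1*, the trimming peptidase, at 0.25, and *Tapbpl*, the tapasin relative that edits peptides, at 0.21, while *Tapbp*, tapasin itself, was at -0.25. Of these 4, only *Erap1* had groups that did not overlap, with 27.52 and 24.34 FPKM in control and 31.83 and 30.33 in KO (unadjusted p = 0.107). *Tapbp* was called lower without KO 1 (-0.49) and *Tapbpl* higher without control 2 (0.40). *Nlrc5*, the class I transactivator, had 23.44 and 30.69 FPKM in control and 23.08 and 26.31 in KO, giving a log2 fold change of -0.12 (95% interval -0.52 to 0.28).

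The lower genes were those of H2-O, whose chains pair to hold H2-DM back. *H2-Ob*, the beta chain, occupies chromosome 17 from 34238903 to 34254414 (plus strand, GRCm38). It had 32.10 and 28.16 FPKM in control and 15.52 and 13.36 in KO. Both KO values lay well below both control values. The KO mean was 0.479 of that of control, with a log2 fold change of -1.01 (SE 0.16, unadjusted p = 0.00028, adjusted p = 0.0485). With 1 library left out its log2 fold change ran from -1.11 to -0.91. Over the planned limma alternatives that kept all 4 libraries, its adjusted p ran from 0.0464 to 0.319. A pairing of control 1 with KO 2, chosen after seeing the data, gave 0.0112. *H2-Oa*, the alpha chain, had 7.63 and 9.38 FPKM in control and 6.32 and 4.61 in KO, also without overlap. Its log2 fold change was -0.56 (SE 0.23, unadjusted p = 0.0421, adjusted p = 0.292). That call was lost without control 2 (-0.43) and without KO 2 (-0.37).

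The H2-DM genes, on which H2-O acts, were not called. *H2-DMa* had 24.57 and 27.67 FPKM in control and 28.98 and 31.91 in KO, with a log2 fold change of 0.21 (95% interval -0.12 to 0.55). *H2-DMb1* was at 0.17 and *H2-DMb2*, a copy at 95.7% identity, at -0.11, and neither was abundant. The ratio of *H2-Ob* to *H2-DMa* was 1.31 and 1.02 in control and 0.536 and 0.419 in KO, and that to *H2-DMb1* was 2.67 and 2.75 in control and 1.22 and 1.07 in KO. The KO ratios lay below the control ratios for both chains, and *H2-Ob* stayed above *H2-DMb1* alone in every library. *H2-DMb2* had 7.98 and 7.04 FPKM in control and 8.60 and 5.42 in KO. Reads of these copies can be divided between them in more than one way. They were not summed, so *H2-Ob* was not compared with both copies together. In the map order of the set on chromosome 17, *H2-Oa* (34092340 to 34095234) is followed by *H2-DMa*, and *H2-Ob* lies between *Tap2* and *H2-Ab1*. Genes outside the set are left out of this order. The tested neighbours of the set on either side of *H2-Ob* had log2 fold changes of 0.24 and 0.32, the opposite sign to *H2-Ob*.

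**Figure D4:**
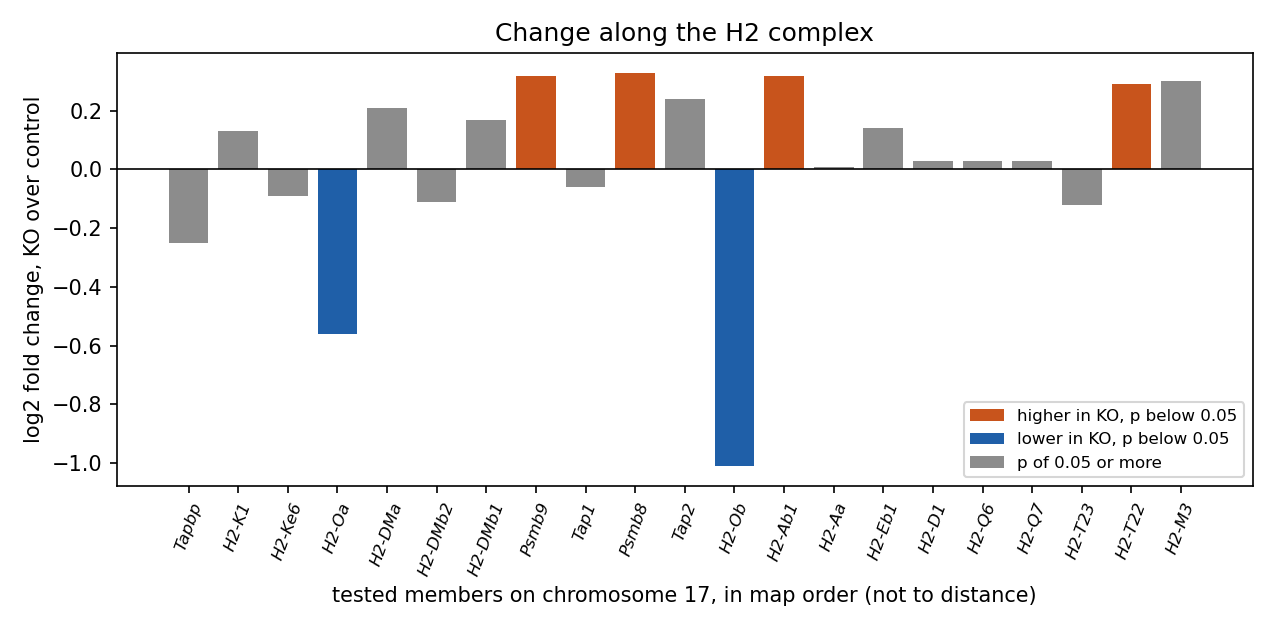
Log2 fold change (KO over control, bars) of the 21 tested genes of the set on chromosome 17, in map order and not to distance, with genes called higher in orange and lower in blue. H2-Oa (-0.56) and H2-Ob (-1.01) point down between neighbours that lie between -0.11 and 0.33.

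Of the class II chains, *H2-Ab1*, the beta chain of I-A, was called higher and its partner was not. *H2-Ab1* had 515.57 and 408.73 FPKM in control and 597.98 and 552.91 in KO. The groups did not overlap, at a log2 fold change of 0.32 (SE 0.14, unadjusted p = 0.0476, adjusted p = 0.303). The call was lost without control 2 (0.16), without KO 1 (0.27) and without KO 2 (0.38). *H2-Aa*, the alpha chain of the same molecule, had 158.87 and 148.67 in control and 161.40 and 148.16 in KO, which is a log2 fold change of 0.01 (95% interval -0.25 to 0.27). *H2-Eb1*, the beta chain of I-E, was at 0.14 (-0.12 to 0.39). Its alpha chain is a pseudogene in this annotation, *H2-Ea-ps*, and was listed at 0 in every library.

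*Cd74*, the invariant chain, was the most abundant class II gene, with 1790.25 and 1206.85 FPKM in control and 1483.18 and 1513.79 in KO. Both KO libraries lay between the controls, for a log2 fold change of 0.03 (95% interval -0.40 to 0.45). The direction turned with the control library that was left out, since it was called higher without control 1 (0.31, unadjusted p = 0.0220) and lower without control 2 (-0.26, unadjusted p = 0.0435). The ratio of *Cd74* to *H2-Ab1* was 3.47 and 2.95 in control and 2.48 and 2.74 in KO. *Ctss*, encoding cathepsin S, had 140.99 and 144.96 FPKM in control and 166.61 and 149.59 in KO, at a log2 fold change of 0.14 (-0.12 to 0.41). *Ciita*, the class II transactivator, was between 0.11 and 0.18 FPKM. Of the RFX subunits, which bind the X box, *Rfxank* was tested, with 14.71 and 11.40 in control and 16.13 and 17.15 in KO. Its log2 fold change was 0.34 (unadjusted p = 0.0976), and it was called without control 1 (0.51, unadjusted p = 0.0360). *Rfx5* and *Rfxap* stayed below 5 FPKM.

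Since class II messages are known from other cells, markers of those cells are given beside them. Of 15 dendritic cell and macrophage markers 5 were above 5 FPKM in every library, *Lyz2*, *Cst3*, *C1qa*, *C1qb* and *C1qc*, and 6 were at most 1. Their summed FPKM was 449 and 411 in control and 402 and 427 in KO. Among the others, *Zbtb46* was at 4.63 to 6.91 FPKM and *Csf1r* at 4.42 to 5.69, and neither was called. *Itgax* was at most 0.69, *Flt3* at most 0.02, and *Clec9a* at 0. Of 9 B and plasma cell markers 2 were above 5 FPKM in every library, *Jchain* (112 to 169) and *Cd79b* (9.18 to 12.54), and 4 were at most 1. Their sum was 135 and 176 in control and 126 and 187 in KO, most of it *Jchain*, with *Ms4a1* at most 0.63 and *Pax5* at most 0.04. Of these 9 markers 1 had both KO libraries above both controls and 1 below, both too low to be tested. *Blk* had 0.68 and 0.65 FPKM in control and 1.12 and 1.47 in KO. *Ebf1* had 0.80 and 1.11 in control and 0.25 and 0.34 in KO. Of the 15 dendritic cell and macrophage markers 5 had both KO libraries above both controls, as *H2-Ab1* had, and 1 had them below. Among the tested markers these were *Adgre1* and *C1qc* above and *Cst3* below, while *C1qa*, *C1qb*, *Csf1r*, *Lyz2* and *Zbtb46* overlapped. Of all genes tested, 24.2% had them above and 22.9% below. These shares do not cover markers too low to be tested. *Adgre1*, encoding F4/80, had 4.38 and 3.66 FPKM in control and 5.60 and 6.24 in KO (unadjusted p = 0.0773), and *C1qc* had 22.96 and 21.30 in control and 30.48 and 25.82 in KO (unadjusted p = 0.0609). *Xcr1* had 1.41 and 2.00 in control and 3.43 and 3.34 in KO, and *Cd209a* and *Itgax* were higher in KO at less than 1 FPKM, all 3 too low to be tested. *Cst3*, at 180.70 and 179.90 in control and 133.77 and 138.52 in KO, was the marker of either list that was called, and *Cst3* and *Lyz2* make up most of the summed FPKM. Relative to its mean over the libraries *H2-Ab1* was at 0.994 and 0.788 in control and 1.15 and 1.07 in KO, and *C1qa* was at 1.02 and 0.808 in control and 1.22 and 0.946 in KO. *C1qa*, *C1qb*, *C1qc* and *Csf1r* were, like *H2-Ab1*, higher in control 1 than in control 2 and in KO 1 than in KO 2. The other tested markers of that list, *Lyz2*, *Cst3*, *Adgre1* and *Zbtb46*, did not share this order. Each was lower in KO 1 than in KO 2, with *Lyz2* at 127.83 and 167.97 FPKM. The part of such cells in the class II values was not tested. Of the other lists, 1 of 8 epithelial markers (*Epcam*), 1 of 4 NK cell and ILC markers (*Kit*), 1 of 4 stromal and endothelial markers (*Pecam1*) and 0 of 2 CD8 T cell markers were above 5 FPKM in every library. *Epcam* and *Kit* were called lower and *Krt18* and *Pecam1* higher, and of the T and Treg cell markers *Ctla4* was called higher and *Ikzf2*, encoding Helios, lower.

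**Figure D5:**
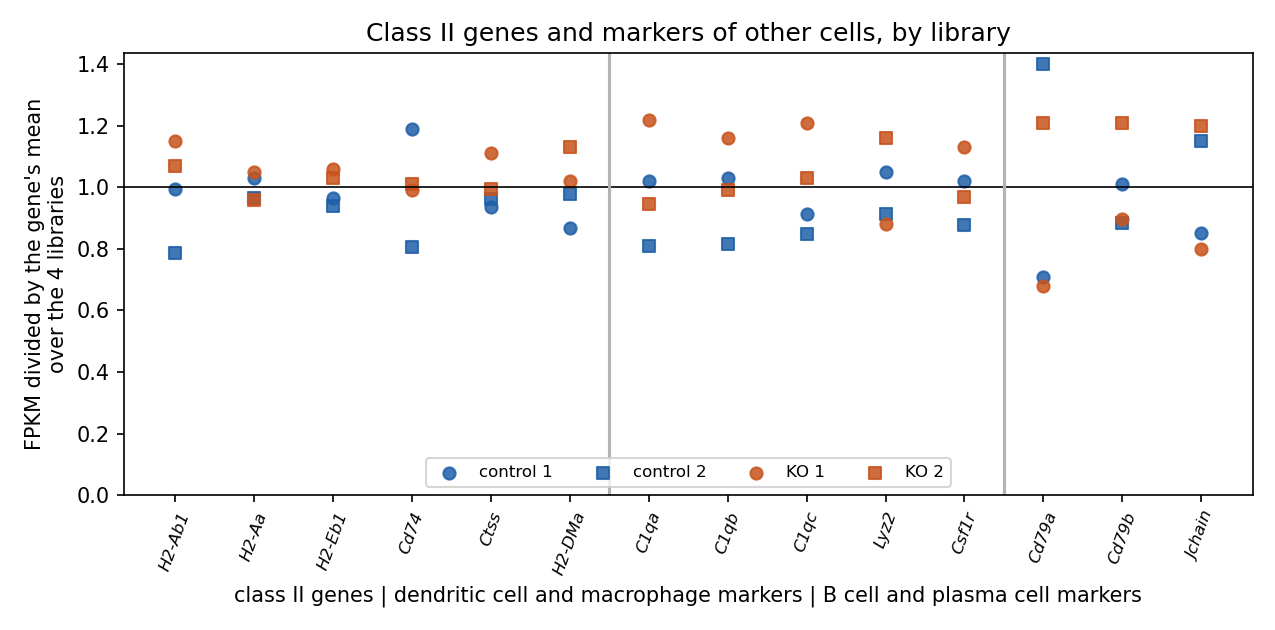
FPKM divided by the mean of the gene over the 4 libraries, for 6 class II genes (left), 5 dendritic cell and macrophage markers (middle) and 3 B and plasma cell markers (right), with control in blue, KO in orange, library 1 as circles and library 2 as squares. H2-Ab1 runs from 0.788 to 1.15 and C1qa from 0.808 to 1.22, each lowest in control 2 and highest in KO 1.

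The remaining 32 genes were not tested. Of these, 13 were listed at 0 in every library, 10 of them H2-M genes, and 7 more were at most 1 FPKM, among them *Ciita*, *H2-Eb2* and *H2-Q1*. Another 7 were protein-coding with values from 2.16 to 5.11 FPKM, namely *H2-M2*, *H2-Q2*, *H2-Q4*, *H2-Q10*, *H2-T24*, *Rfx5* and *Rfxap*. The last 5, *H2-Bl*, *H2-K2*, *H2-Q5*, *H2-T-ps* and *H2-T10*, were of another gene type. *H2-Ke6*, included for its symbol only, encodes a steroid dehydrogenase and had a log2 fold change of -0.09.

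Outside the set, 52 further genes of the pathway were listed and 47 tested, of which 5 were called higher and 4 lower (10.6% and 8.51%, near the 8.61% and 7.57% of all genes) and 0 kept an adjusted p below 0.05, with limma and at a median log2 fold change of 0.04. *Stat2*, a factor of type I interferon signalling, had 34.43 and 41.59 in control and 27.28 and 22.39 in KO, at -0.59 (SE 0.16, unadjusted p = 0.0074, adjusted p = 0.159). *Irf1*, an interferon-induced factor that acts on class I promoters, was at -0.13 (95% interval -0.43 to 0.17). *Lgmn*, a lysosomal peptidase, was the 1 of 7 tested peptidases called higher (0.27, unadjusted p = 0.0429), and none was called lower. Of the class I chaperones *Calr* was at -0.43 (unadjusted p = 0.0100) and *Pdia3* at -0.32 (unadjusted p = 0.0201), both lower, and *Canx* was at -0.32 (unadjusted p = 0.0659). *Cd83*, a surface protein that keeps class II from being degraded, had 712.33 and 512.15 FPKM in control and 315.09 and 265.48 in KO. Its log2 fold change was -1.06 (SE 0.17, unadjusted p = 0.000386, adjusted p = 0.0565). None of the 4 tested factors of the class II promoter (*Creb1*, *Nfya*, *Nfyb* and *Nfyc*) was called.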

How the data were processed

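RNA of sorted LI Treg cells was measured in 2 control and 2 KO libraries. After FastQC, the authors aligned to GRCm38 (STAR 2.5), quantified with RSEM 1.2 on GENCODE M16, and deposited FPKM for 53379 genes, as the submitters' processing notes and the methods state. The equal values at equal ranks are those that quantile normalization gives, a step no source names. No counts or depths were given, so precision is the spread between pools, and no count test or counting interval was possible. RSEM was run with default settings, which do not use strand. Splenic libraries were not analysed here.

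Gene types and positions came from GENCODE M21 (GRCm38), which matched 53274 identifiers, and 26 symbols turned into dates were restored by identifier. The log2(FPKM + 1) values, computed here from the deposited FPKM, entered limma 3.58.1 (R 4.3.3) with a trend and no covariate, for protein-coding genes whose mean FPKM exceeded 5 in at least 1 of the groups. The fit was tested on simulated data. The p-values measure the spread between pools of mice, whose litters are not given. Same-numbered libraries were not treated as pairs. Their deviations from the group means correlated at r = -0.305, and those of control 1 with KO 2 at 0.305. With 2 libraries per group these values mirror each other. They cannot show whether libraries were prepared in pairs.

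Every tested gene of the set was described, the others were counted by group, and pathway genes were named where called. *Irf1*, *Canx*, *Psme1*, *Psmb5*, *Psmb6*, *Psmb7* and *Cd1d2* were added as partners of a named gene. The members and lists were chosen with earlier results of these data known. Of these lists, 1 pathway gene and 1 marker are not reported here and are in no count of a list. Alternatives were pseudocounts of 0.1 and 5, other filters and gene types, median-centred and quantile-normalized values, no trend, the replicate block, family sums and each library left out. Promoter windows are RefSeq's (GRCm38.p6), and transcripts were compared with blastn 2.17.0. Tables and figures used Python 3.11.15, pandas 2.3.3, numpy 2.4.6 and matplotlib 3.10.9.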

Additional observations from a re-analysis of the deposited data

How the results depend on the processing

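*Cd1d1*, *Psmb10* and *H2-Ob* were called in the same direction in all 14 alternatives, of which median centring and quantile normalization are weak checks on values already alike at each rank (1229 and 1239 unadjusted calls over all genes, against 1236), and the crossed pairing was chosen after seeing the data. *Psmb8*, *H2-T22* and *H2-Oa* were called in 9, and *Psmb9* and *H2-Ab1* in 8. Of 434 single-gene values under alternatives 385 kept direction and side of the threshold, 27 lost a call, 9 gained one and 13 changed sign. The cause was not tested. A lone library left in a group was assumed to vary like the other group.

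The counts higher and lower in KO were 6 and 2. Higher genes fell to 2 with empirical Bayes without a trend, and lower genes to 1 without a filter on low FPKM and with all gene types. With each library left out they ran from 2 to 6 higher and from 1 to 3 lower. Adjusted calls ran from 0 to 1 there, and were 0 in place of 1 with a pseudocount of 5, a mean FPKM of at least 1, no filter on low FPKM, all gene types, median centring and no trend. *H2-Ob* had an adjusted p of 0.0602 to 0.319 under the filters and gene types. Over all genes, adjusted calls went from 45 to 27 at a mean FPKM of at least 1, 0 without a filter (1946 at an unadjusted p below 0.05), 13 with all gene types, 3 without a trend and 2 to 66 with a library left out. Unadjusted calls went from 1236 to 1946 without a filter and from 644 to 1250 with a library left out.

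The replicate number as a block gave 3 higher, 1 lower and 0 adjusted calls, and 796 unadjusted and 27 adjusted calls over all genes. The crossed pairing of control 1 with KO 2, chosen after seeing the data, gave 9 higher, 3 lower and 3 adjusted calls, and 465 adjusted calls over all genes.

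With a library left out, the H2-Q sum ran from -0.07 to 0.16 (log2 fold change). Log2 fold changes that changed sign, with their range over the libraries left out, were those of *Mr1* (-0.40 to 0.08, positive without control 1), *H2-D1* (-0.15 to 0.21, negative without control 1 or KO 1), *Nlrc5* (-0.31 to 0.07, positive without control 2), *Cd74* (-0.26 to 0.31, negative without control 2), *H2-DMb2* (-0.40 to 0.18, positive without KO 2), *H2-Aa* (-0.05 to 0.07, negative without control 2 or KO 1), *H2-Q6* (-0.04 to 0.10, negative without control 1 or KO 1), *H2-Q7* (-0.12 to 0.19, negative without control 1) and *Tap1* (-0.23 to 0.12, positive without control 2 or KO 2). Depth is unknown, so a limit for genes listed at 0 could not be given.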
